A study of Mus musculus with 12 samples.

Results

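Piwil1, also called Miwi, is the gene that the alleles of these animals target, and it is described here as 1 gene (ENSMUSG00000029423, the Ensembl ID of mouse Piwil1) of 20345 in the deposited table. RNA recovered with MIWI, the protein made from Piwil1, and input RNA were sequenced from mouse late spermatocytes after depletion of ribosomal RNA. The genotypes were Miwi +/- (1 intact copy), Miwi ADH/- (1 copy with the ADH allele) and Miwi -/- (no intact copy), so all 3 carry at least 1 "-" allele and no animal with both copies intact was measured. Genotype and kind of RNA, immunoprecipitation (IP) or input, define 6 groups of 2 samples (12 in all), but the table holds 1 column per group. No value below therefore has a replicate check or a p-value. The labels used here state no age, no strain and no cre driver, and do not say how the "-" allele was made.

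MIWI is an Argonaute protein of the PIWI clade. In male germ cells it is loaded with pachytene piRNAs, small RNAs that guide it to complementary transcripts, and males without it arrest as round spermatids. PIWI proteins can cut a paired target through a catalytic triad of acidic and histidine residues, and ADH denotes a MIWI in which 1 residue of that triad is replaced, so that the protein is made but cannot cut. Piwil1 mRNA itself appears in meiotic prophase, when the transcription factor A-MYB switches on the genes of the pachytene piRNA pathway.

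The start of Piwil1 lies on mouse chromosome 5. A pair of stretches from its promoter is shown because it holds the letters that MYB proteins are known to prefer, in the gene whose transcript is measured below; binding was not measured in these data. Both are 30 bases on the + strand from RefSeq (GRCm38.p6), at chr5:128736092-128736121 and chr5:128736171-128736200. Counted from the transcription start as 0, they run from -154 to -125 and from -75 to -46.
upstream window: CACGTGtccacctcgCCGTTAacccagagg
downstream window: ggCAGTTGgggCTGTTAgcaggtgccgcag
Capitals mark matches to the E-box CACGTG and to 2 forms of the MYB core. The MYB forms searched, on both strands, were TAACNG on the one hand and CAACNG on the other. All 3 MYB matches lie on the - strand, so the capitals show their reverse complements. In the 300 bases around the start (250 before, 50 after), Piwil1 had 2 matches to TAACNG and 1 to CAACNG. At least 1 match to either was found in 49.7% of 32851 RefSeq promoters of that length and at least 3 in 4.73%. CACGTG was found in 7.15% of them, and at least 2 copies, as in Piwil1, in 0.594%.

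Levels are in RPKM, a read number divided by the length of the gene in kilobases and by the reads of the column per 1000000. RPKM values of a gene step in units of 1 read, so its read number could be recovered. Intervals are exact 95% intervals that cover counting error alone: copies made by PCR are not independent molecules. The listed genes held 761525 to 3706479 reads in the IP columns, with Miwi -/- lowest, and 2627634 to 3918947 in the inputs. Piwil1 is ranked among the 12246 genes that reached 1 RPKM in 2 or more columns. Genes other than Piwil1 are given by Ensembl ID, because the files do not pair them with symbols and the RefSeq gene table (GRCm38.p6) matched 0 of the IDs. Other genes of the piRNA pathway and cell type markers were therefore not analysed here, and the labelled cell type was not checked against its markers.

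In the inputs, Piwil1 levels in the Miwi +/- and Miwi ADH/- columns differed by less than counting error on the deposited scale, and the level was far lower in the Miwi -/- column. The Miwi +/- input had 49.2 RPKM (46.7 to 51.8, from 1453 reads). The Miwi ADH/- input had 50.3 RPKM (47.4 to 53.4, from 1089 reads). The Miwi -/- input had 6.71 RPKM (5.79 to 7.74, from 188 reads). The genotype labels and the targeted gene thus went the same way in the inputs, with the Miwi -/- column apart from the others and a residual signal in it. By level, 1549 of the 12246 genes lay above Piwil1 in the Miwi +/- input (12.6%) and 11.3% in the Miwi ADH/- input. In Miwi -/- it lay near the middle, with 49.6% above it, where the median gene had 6.58 RPKM.

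The IP columns spread further apart. The Miwi +/- IP had 199 RPKM (193 to 205, from 4617 reads). The Miwi ADH/- IP had 319.7 RPKM (314 to 325, from 13340 reads). The Miwi -/- IP had 4.50 RPKM (3.53 to 5.65, from 74 reads). Piwil1 was thus among the most abundant transcripts of both IPs in which a MIWI protein can be made, at place 99 in Miwi +/- and place 79 in Miwi ADH/-. It lay at place 3744 in Miwi -/-. It took 0.268% of the reads in listed genes of the Miwi +/- IP and 0.360% of those of the Miwi ADH/- IP, against 0.0371% and 0.0414% of their inputs. In Miwi -/- the shares were 0.00972% of the IP and 0.00493% of the input.

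**Figure D1:**
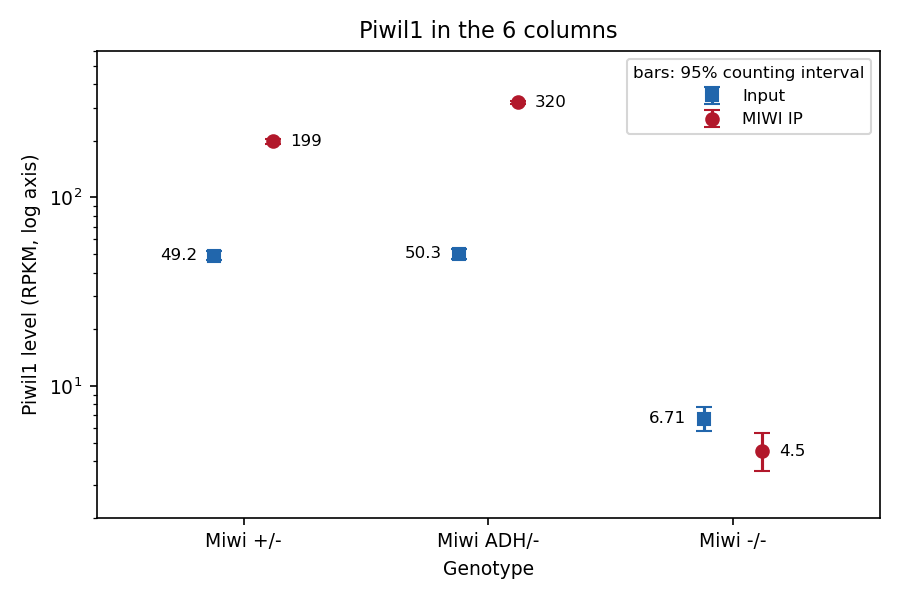
Piwil1 level in RPKM (log axis) in the input (squares) and MIWI IP (circles) column of each genotype, with bars for the 95% counting interval. The IP lies above the input in Miwi +/- (199 against 49.2) and Miwi ADH/- (319.7 against 50.3), and both Miwi -/- columns lie below 8 RPKM.

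The first comparison checks the genotypes in the starting RNA. The ratio of the Miwi ADH/- to the Miwi +/- input was 1.02 (0.945 to 1.11), an interval that includes equality. On the log2(RPKM + 1) scale, on which a pseudocount of 1 is added and low genes are understated, the difference was 0.03, against a median of -0.16 over all genes. This depends on the scale: it was 0.19 relative to the median gene and 0.27 with median-of-ratios scaling, both beyond counting error, and -0.04 with equal totals of listed genes. At least 2-fold higher in this comparison were 7.80% of genes, and Piwil1 was not among them. The table sums the reads of a gene and does not separate the ADH allele from the other allele.

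The Miwi -/- input was 7.33-fold lower than the Miwi +/- input for Piwil1 (6.29 to 8.58), a log2 difference of -2.70. This is a large difference in these columns but not the largest: 10.6% of genes were at least 2-fold lower, and 247 of them (2.02% of the 12246) lay further down than Piwil1. Of these 247, 27 had at least as many RPKM as Piwil1 in the Miwi +/- input. The Miwi ADH/- input was 7.50-fold higher than the Miwi -/- input (6.42 to 8.80), a log2 difference of 2.73. Here 12.6% of genes were at least 2-fold higher, and 452 lay above Piwil1. Both comparisons use the same Miwi -/- column. In bulk RNA, fewer cells that carry a transcript and less of it per cell cannot be told apart. Whether the 188 reads come from the targeted allele or from other RNA was not tested.

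Recovery of Piwil1 mRNA with its own protein is given by the IP set against the input of the same genotype. In Miwi +/- the IP was 4.04-fold above the input (3.81 to 4.29), a log2 difference of 1.99. The median gene lay at -0.77, and 4.24% of genes were at least 2-fold higher in the IP. Piwil1 was in place 89 of 12246, and in place 283 with a pseudocount of 0.1, which lets thinly read genes move further. The 88 genes above it were mostly thinly read: 75 had under 100 input reads, their median was 2 reads, and none had more than 611. How many of all 12246 genes had under 100 input reads was not counted. Of the 496 other genes with at least as many input reads as Piwil1, none had a higher IP-minus-input difference, and 6 were at least 2-fold higher in the IP; their median log2 difference was -1.40. The same held at like abundance: of 2192 other genes with 0.5 to 2 times its input RPKM, 0 lay above Piwil1, and the median log2 difference was -1.16.

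In Miwi ADH/- the IP was 6.35-fold above the input (5.97 to 6.77), a log2 difference of 2.64, against a median of -0.41. At least 2-fold higher in this IP were 4.83% of genes, and Piwil1 was in place 11, or 99 with a pseudocount of 0.1. All 10 genes above it had at most 41 input reads, with IP levels of 5.64 to 31.4 RPKM. Of the 416 other genes with at least as many input reads, 16 were at least 2-fold higher and none lay above Piwil1; nor did any of 1973 genes with 0.5 to 2 times its input RPKM. These places hold the pseudocount of 1, and without it some genes with more input reads than those 10 had ratios no lower than the 6.35 of Piwil1. ENSMUSG00000042133, in place 12, had a ratio of 6.49 (5.46 to 7.77, from 139 input reads). In Miwi -/- it had 275 RPKM in the IP against 13.8 in the input. ENSMUSG00000074067, in place 13, had 360 input reads. Its IP level was 154.8 RPKM and its input level 24.3 RPKM, a ratio of 6.36 (5.71 to 7.10), and its input level was 18.5 RPKM in Miwi -/- against 23.7 in Miwi +/-, a smaller difference than that of Piwil1. In the Miwi -/- IP it had 2.76 RPKM, a log2 difference from input of -2.38 against -0.49 for Piwil1, so its log2 enrichment over the control exceeded the 3.13 of Piwil1.

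**Figure D2:**
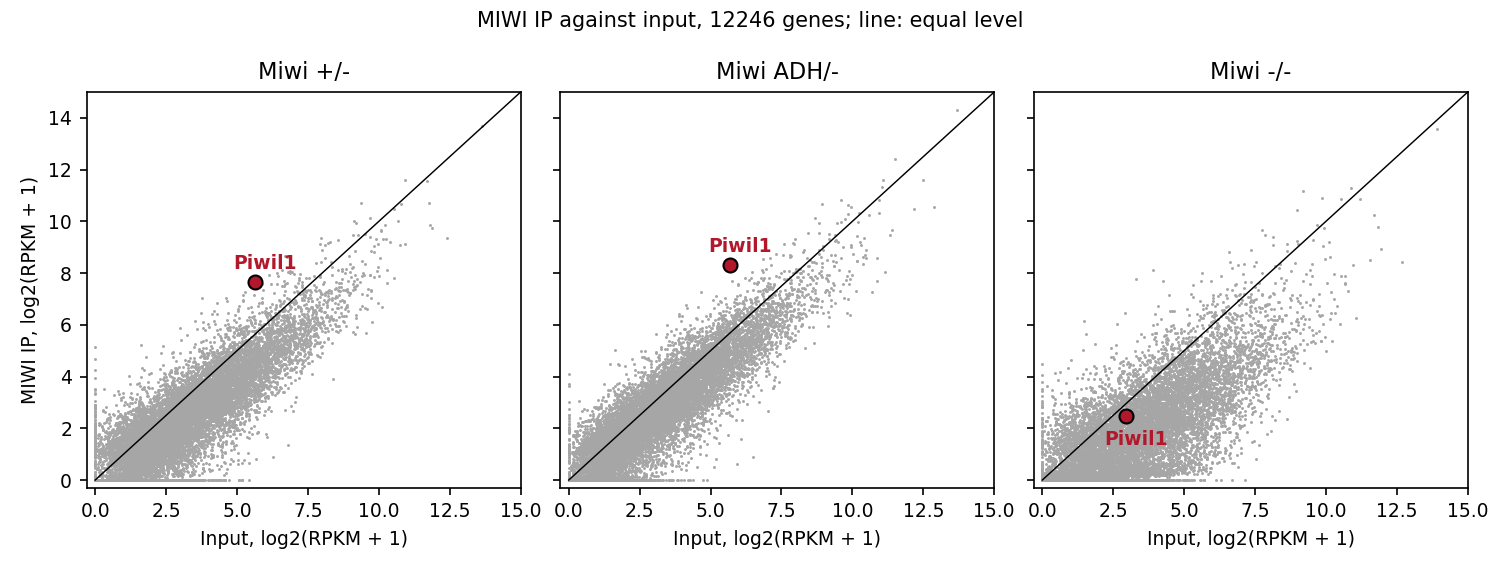
MIWI IP against input in the 3 genotypes, each axis log2(RPKM + 1), with 12246 genes as grey points, Piwil1 in red and a line of equal level. Piwil1 stands above the line and the main cloud in Miwi +/- and Miwi ADH/-, and inside the cloud, just below the line, in Miwi -/-.

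Piwil1 was also set beside genes of like length, as given by the RPKM worth of 1 read. Of 4621 other genes with 0.5 to 2 times its length, 17 lay above it in Miwi +/- and 1 in Miwi ADH/-. Their median log2 differences were -0.59 and -0.23. With a pseudocount of 0.1 it was in place 59 and 10 of the 4622 genes in this class, and it kept place 1 among genes with as many input reads in both genotypes.

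**Figure D3:**
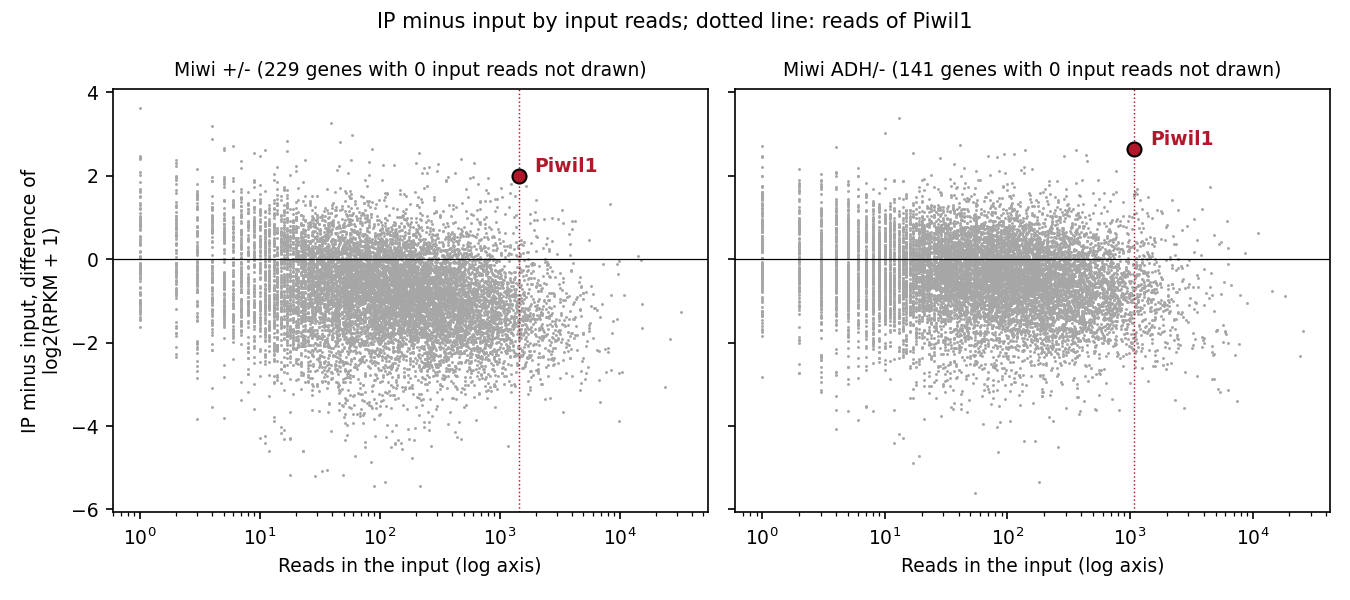
Difference of log2(RPKM + 1), IP minus input, against the number of input reads (log axis) in Miwi +/- and Miwi ADH/-, with Piwil1 in red and a dotted line at its read number. To the right of the line, at 1453 reads in Miwi +/- and 1089 in Miwi ADH/-, no gene lies higher than Piwil1.

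The Miwi -/- IP is the background of the antibody. There the Piwil1 IP-to-input ratio was 0.670 (0.505 to 0.881), a log2 difference of -0.49. At least 2-fold lower in this IP were 60.9% of genes, Piwil1 not among them, and the median gene lay at -1.37. Piwil1 thus lay above most genes: 3186 genes (26.0%) lay above it. These include genes with 0 reads in both Miwi -/- columns, whose difference is 0 and which were not measured there. Among 3596 other genes with 0.5 to 2 times its input RPKM, 688 lay above it. Among 4029 with at least as many input reads, 461 did. The sign depends on the scale. Relative to the median gene the difference was 0.89, with median-of-ratios scaling it was 1.18, and with equal totals of listed genes it was 0.92.

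Of the 88 genes above Piwil1 in Miwi +/-, 20 also passed 2-fold from input to IP in Miwi -/-, as did 5 of the 10 above it in Miwi ADH/-, where 3.67% of all genes did. Below Piwil1 in IP minus input of Miwi -/- lay 44 of the 88 and 3 of the 10, against 74.0% of all genes. Only 1 gene lay above Piwil1 in both. This was ENSMUSG00000085210, chosen for mention after its values were seen, with 26.0 RPKM in the Miwi +/- IP, 21.2 in the Miwi ADH/- IP and 70.7 in the Miwi -/- IP. Its highest IP level was thus in the control, where that of Piwil1 was lowest. The 247 genes that lay below Piwil1 in the Miwi -/- input comparison are described in the same way. From input to IP, 2 of them passed 2-fold in Miwi +/- and 3 in Miwi ADH/-, where 4.24% and 4.83% of all genes did. The median log2 differences of the 247 were -1.63 and -1.43, against -0.77 and -0.41 over all genes. Genes with 0.5 to 2 times the input RPKM of Piwil1 had medians of -1.16 and -0.77. The Miwi +/- input that picked the 247 is also subtracted in IP minus input of Miwi +/-, which favours low values there. These counts and medians are thus no separate result about recovery.

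Enrichment over the control divides the IP-to-input ratio of a genotype by that of Miwi -/-. For Piwil1 it was 6.03 in Miwi +/- (4.55 to 8.06), a log2 difference of 2.48. In Miwi ADH/- it was 9.48 (7.15 to 12.7), a log2 difference of 3.13. Both use the same Miwi -/- columns, and the width of both intervals comes mostly from their 74 and 188 reads. At least 2-fold higher by this measure were 39.3% of genes for Miwi +/- and 51.9% for Miwi ADH/-, with medians of 0.67 and 1.06. Above Piwil1 lay 1018 genes (8.31%) and 595 genes (4.86%). Piwil1 thus stood less far out by this measure than by IP against input. With median-of-ratios scaling the log2 differences were 1.68 and 1.89, outside the counting intervals, and with a pseudocount of 0.1 the places 1019 and 596 became 2930 and 2665.

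The IP columns alone, an alternative chosen after seeing the data, leave out the inputs. The Miwi +/- IP had 44.2-fold more Piwil1 than the Miwi -/- IP (35.1 to 56.4), and 4 genes showed a larger log2 difference than its 5.18. The Miwi ADH/- IP had 71.1-fold more (56.6 to 90.6), and 5 genes exceeded its 5.87. At least 2-fold higher were 42.1% and 51.8% of genes. These ratios hold both the lower Miwi -/- input level and the recovery in the IP.

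Between the catalytic mutant and the heterozygote, Piwil1 recovery differed less than 2-fold. The IP-to-input ratio in Miwi ADH/- was 1.57 times that in Miwi +/- (1.44 to 1.71), a log2 difference of 0.65. The median gene lay at 0.38, 20.5% of genes were at least 2-fold higher, and 4294 genes (35.1%) lay above Piwil1. Relative to the median gene the difference was 0.27. Between the IP columns alone the ratio was 1.61 (1.55 to 1.66), with 18% of genes at least 2-fold higher and 3394 above Piwil1. The counting intervals exclude equality, but the position of Piwil1 in this comparison was near that of many other genes.

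**Figure D4:**
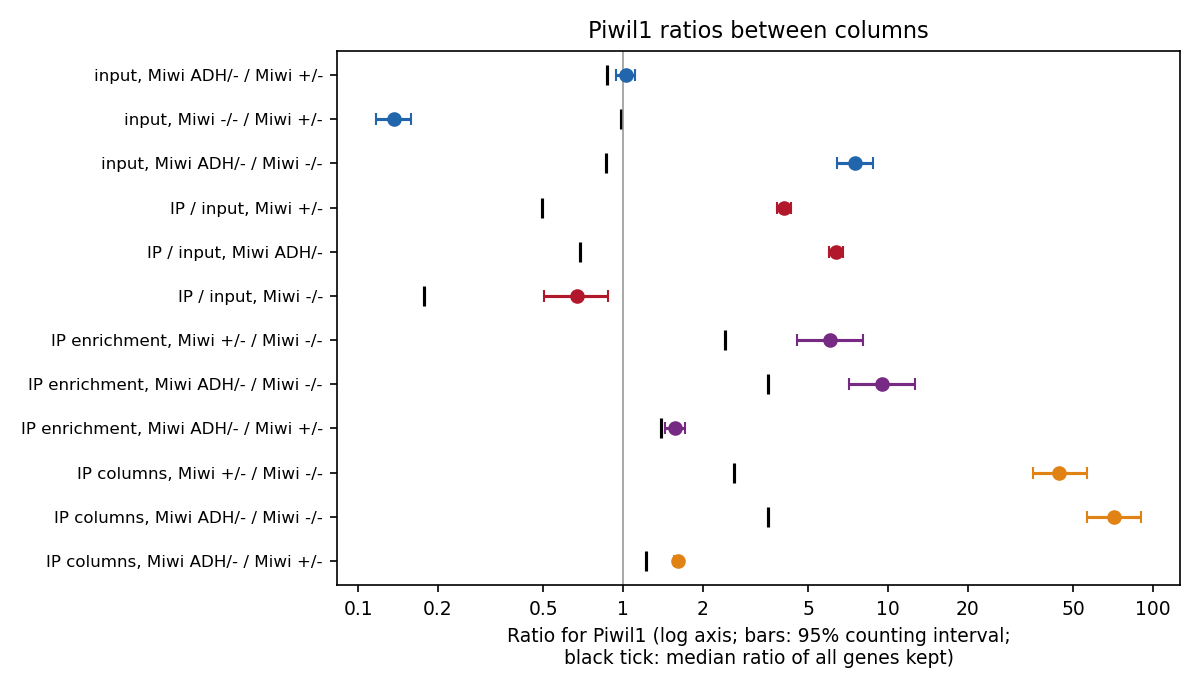
Ratios for Piwil1 between columns (log axis; bars, 95% counting interval) for the inputs, IP over input, enrichment between genotypes and the IP columns alone, with a black tick for the median ratio over all genes kept. The intervals for IP over input lie at 3.81 to 4.29 in Miwi +/-, 5.97 to 6.77 in Miwi ADH/- and 0.505 to 0.881 in Miwi -/-.

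Genes with the most similar profile were sought over the 6 columns, by the Euclidean distance of log2(RPKM + 1) values centred on each gene. The nearest was ENSMUSG00000089730, at a distance of 1.26 with a Pearson r of 0.976. It had 18.2 RPKM in the Miwi +/- IP, 29.0 in the Miwi ADH/- IP, 2.26 and 7.53 in their inputs and 0 reads in both Miwi -/- columns. Next was ENSMUSG00000031174, at 1.64 with an r of 0.987, with 12.1 and 31.1 RPKM in those IPs, 4.61 and 4.79 in their inputs, and 0.450 and 0.581 in the Miwi -/- IP and input. The 5 nearest lay at 1.26 to 2.03, against a median of 5.39 over the other 12245 genes, and their r ranged from 0.939 to 0.987. All 5 had more RPKM in the Miwi ADH/- than in the Miwi +/- IP, as Piwil1 had. The 5 were picked for likeness to Piwil1 over these same columns. Their r values, this order and their low Miwi -/- columns thus follow largely from the choice and are no separate result. Inputs of the nearest gene rested on 9 reads in Miwi +/- and 22 in Miwi ADH/-. The IP recovery of Piwil1 was not shared by all 5: the third nearest had an IP minus input of 0.20 in Miwi +/- and the fourth one of 0.43 in Miwi ADH/-. In these, the Miwi ADH/- input (15.5 and 59.7 RPKM) was at or above the Miwi +/- IP (12.1 and 58.9 RPKM). The 5 genes were far less abundant than Piwil1, with 29.0 to 80.7 RPKM in the Miwi ADH/- IP and at most 5 reads in the Miwi -/- IP.

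**Figure D5:**
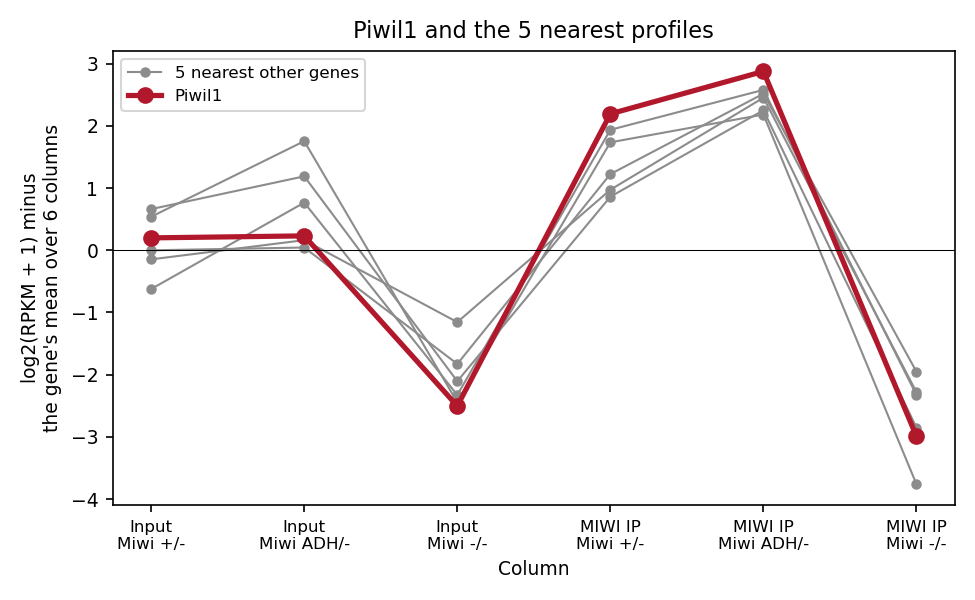
Piwil1 (red) and its 5 nearest genes (grey) in the 6 columns, as log2(RPKM + 1) minus the mean of the gene over the columns. The profiles share low Miwi -/- columns, the inputs vary more between the genes (in some they reach the level of the Miwi +/- IP), and Piwil1 has the highest Miwi +/- and Miwi ADH/- IP values of the 6 genes.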

How the data were processed

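The 12 samples form 6 groups of 2 per the labels. The authors deposited RPKM values in 1 column per group. The file headers name the unit for Miwi +/- alone; values elsewhere move in steps of equal proportion for each gene and were taken as RPKM too. The sources used here do not state whether a column pools both samples. The submitters' processing notes list TopHat, Bowtie and mm9 with no version or role; the counting tool is not given in these sources. All value columns were used.

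The relative depth of the columns is the commonest ratio of low values, and the reads of a gene are the smallest whole numbers, within 0.002 reads (plus a relative 1e-07), that fit its depth-scaled values. All values came out whole (100%) for the 17452 genes above 0 in several columns; the 2893 genes with 1 value were taken as 1 read. With values in few columns a fit can arise by chance; Piwil1 has values in all 6. Ratio intervals are Clopper-Pearson, conditional on the summed reads, and enrichment intervals come from the conditional odds ratio (Python 3.11.15, SciPy 1.17.1). Read recovery and the 2-fold calls of IP minus input in Miwi +/- were run on simulated data. The rankings were not.

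Genes were kept at 1 RPKM in at least 2 columns, and 2-fold is counted on log2(RPKM + 1). Named genes were Piwil1, its nearest profiles and its neighbours in rank; PIWI, AGO and pathway genes could not be named, and at most 2 IDs per comparison are printed. The gene, the lists and the rules were chosen with earlier results of these data known. Alternatives were the pseudocount, the filter and the scaling.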

Additional observations from a re-analysis of the deposited data

Results flagged for a closer look

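IP minus input for Piwil1 went in opposite directions between genotypes on the deposited scale: the log2 difference was 1.99 in Miwi +/- and 2.64 in Miwi ADH/-, but -0.49 in Miwi -/-. With 1 column per group this difference between genotypes was not tested across samples. The opposite sign is not kept under other scalings, where Miwi -/- also lay above 0, at 0.89 to 1.18; the order of the genotypes stayed the same in each of them.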

How the results depend on the processing

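No paired analysis was possible because each group has 1 column and the columns carry no replicate number; leaving out a replicate was not possible either. The alternatives for the piRNA pathway list were not run, since its genes were not named. For this count, the counting interval of each ratio was shifted, with its log2 width kept, to lie around the log2(RPKM + 1) difference. Of 48 alternative values of the 9 log2 differences, 26 stayed within the shifted interval and 22 moved. Set against the intervals printed for the ratios, fewer would stay within. No difference of at least 2-fold changed sign. Pseudocounts of 0.1 and 0 moved none of the differences beyond the shifted interval.

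Relative to the median gene, with median-of-ratios scaling and with equal totals, in that order, IP minus input became 2.76, 2.86 and 2.90 in Miwi +/-, 3.05, 3.07 and 3.25 in Miwi ADH/-, and 0.89, 1.18 and 0.92 in Miwi -/-, where the sign turned. Enrichment became 1.81, 1.68 and 1.98 for Miwi +/- over Miwi -/-, 2.08, 1.89 and 2.33 for Miwi ADH/- over Miwi -/-, and 0.27, 0.21 and 0.36 for Miwi ADH/- over Miwi +/-. The Miwi ADH/- minus Miwi +/- input difference became 0.19 and 0.27 under the first and second of these. The IP columns alone gave 5.18 and 5.87 over Miwi -/-.

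Ranks depend on thinly read genes. With a pseudocount of 0.1, place 89 in Miwi +/- became 283, place 11 in Miwi ADH/- became 99, and the enrichment places 1019 and 596 became 2930 and 2665. With a minimum of 5 RPKM in 2 columns (7646 genes), the places were 54 in Miwi +/-, 1451 in place of 3187 in Miwi -/-, and 2760 in place of 4295 for Miwi ADH/- over Miwi +/-. Without a filter (20345 genes), Miwi -/- gave place 9763, counting as above Piwil1 the genes with 0 reads in both Miwi -/- columns. The Miwi -/- columns, with 74 and 188 Piwil1 reads, limit every comparison with that genotype.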
